A study of Saccharomyces cerevisiae with 4 samples.

Results

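Cas12e (CasX) and Cas12a are RNA-guided proteins of type V CRISPR systems. dDpbCas12e and denAsCas12a are their DNase-deficient forms, which bind DNA next to different protospacer adjacent motifs but do not cut it. The transcriptomes of 2 Saccharomyces cerevisiae strains that make dCas12e were compared here with those of 2 strains that make denAsCas12a, to ask which genes separate the strains by their Cas protein whether or not a scaffold RNA (ScRNA, a guide RNA extended with hairpins that recruit an activator) is present. The tables list 6418 genes, of which 6010 averaged 10 counts or more across the 4 libraries and were tested. A gene was kept as separating the strains when both dCas12e libraries lay above, or both below, both denAsCas12a libraries on the TPM scale (transcript abundance corrected for gene length and for the total of a library) and also on TMM-scaled CPM (counts relative to the library total, with a factor that sets most genes equal between libraries). By this rule 574 of the 6010 genes were higher (9.55% of the genes tested) and 1270 were lower (21.1%) in the dCas12e strains.

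All 4 strains derive from CEN.PK2-1C, a MATa laboratory haploid with the auxotrophic alleles ura3-52, trp1-289, leu2-3_112 and his3D1 besides MAL2-8c and SUC2, and all carry on a TRP1 plasmid MCP-VP64, the RNA-binding activator that the ScRNA recruits, under the ADH1 promoter. The dCas12e strains are byMM1736, with dCas12e and no ScRNA, and byMM1832, with dCas12e and ScRNA-L1 against the GAL7 promoter and the reporter promoter. The denAsCas12a strains are byMM1777, with denAsCas12a and no ScRNA, and byMM1827, with denAsCas12a and ScRNA-5′ against the HED1 promoter and the reporter promoter. The Cas gene sits on a URA3 plasmid, the ScRNA on a HIS3 plasmid under the SNR52 promoter, and the yEGFP reporter on a LEU2 plasmid. That LEU2 plasmid is not the same in the dCas12e and the denAsCas12a strains. By the paper's methods, both Cas genes were cloned behind the TDH3 (GPD) promoter. The paper describes its vectors as integrative and cut them inside the auxotrophic marker before transformation. How many copies each strain holds was not tested. Each strain was sequenced once and grew as its own culture, so the Cas protein, the LEU2 plasmid, the history of each transformant and, between byMM1832 and byMM1827, the ScRNA and its targets cannot be told apart. The spread used by every test is that between single libraries of different strains.

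Growing yeast spends much of its transcription on ribosomes. Genes for ribosomal proteins, many of them present as duplicate pairs, are switched on together by factors such as Rap1 and Ifh1 when nutrients are ample, while genes for stress defence and for carbon sources other than glucose are kept low by protein kinase A activity and glucose repression and are turned on through Msn2, Msn4, Cat8 and Adr1. The general stress group and the ribosomal protein genes commonly move in opposite directions in yeast.

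The libraries held between 37275559 and 54013763 counts, and the 10 most abundant genes took 10.8% to 13.8% of them. TMM factors were 0.960 and 0.970 in the dCas12e libraries, against 1.09 and 0.985 in the denAsCas12a libraries, and the median TPM of the tested genes was 37.2 and 37.3 in the dCas12e libraries, against 44.3 and 39.1 in the denAsCas12a libraries. The TPM scale put most genes lower in the dCas12e strains. The median log2 difference over all genes tested was -0.13 on TPM and -0.11 on CPM of the total. It was -0.27 relative to ACT1 (the actin gene) and -0.01 after TMM scaling. Counts of separating genes followed the scale, with 574 higher (9.55%) and 1976 lower (32.9%) on TPM alone and 1268 higher (21.1%) and 1270 lower (21.1%) on the TMM scale alone, and for this reason both scales were required. The 7 MATa genes checked (the a-factor genes, the α-factor receptor and others) ranged from 11.99 to 1670 TPM and summed to 2324 and 1996 TPM in the dCas12e strains, against 2531 and 2821 TPM in the denAsCas12a strains, whereas the 4 MATα genes ranged from 5.55 to 32.9 TPM and summed to 75.3 and 73.6 TPM in the dCas12e strains, against 76.3 and 80.9 TPM in the denAsCas12a strains. The 4 galactose genes ranged from 1.62 to 8.94 TPM. The sum of the labelled mating type was the higher in all 4 libraries, although its STE6 and ASG7 lay within the range of the MATα genes. In bulk RNA, fewer cells expressing a gene and less RNA per cell cannot be told apart.

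With ScRNA presence as a block, edgeR's quasi-likelihood test called 1 gene higher (0.0166% of the genes tested) and 1 gene lower (0.0166%) in the dCas12e strains at a Benjamini-Hochberg adjusted p under 0.05, and 344 higher (5.72%) and 382 lower (6.36%) at an unadjusted p under 0.05. The lower gene is YCL021W-A and the higher gene is RPL41B. The fit has 1 residual degree of freedom per gene, and an exact permutation test of 2 libraries against 2 cannot go below a two-sided p of 0.333, so all other genes are described by their values. Fits of 3 libraries have no degree of freedom left for the ScRNA block, so in them, here and in what follows, leaving out a library and dropping the block cannot be told apart. They called other numbers of genes: 112 higher and 178 lower were called without byMM1736, 7 and 5 without byMM1832, 0 and 0 without byMM1777 (24 and 58 at an unadjusted p under 0.05), and 0 and 2 without byMM1827, where all 4 libraries with no block gave 0 and 1. DESeq2 called 58 higher and 40 lower on the same 4 libraries. The size of most separations was small. Among genes without overlap on TPM alone, 16 were at least 2-fold higher in the mean on TPM (0.266%) and 70 at least 2-fold lower (1.16%). Without overlap on the TMM scale alone, 31 were at least 2-fold higher on that scale (0.516%) and 40 lower (0.666%). Of the genes that separated on both scales, 29 were at least 2-fold higher and 40 lower on the TMM scale. In 8 genes that were higher and 28 that were lower without overlap on TPM alone, the nearest libraries of opposite sides lay at least 1.5-fold apart on TPM.

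YCL021W-A, a small protein-coding gene of unknown function on chromosome III, had 0 and 0 counts in byMM1736 and byMM1832, against 365 and 391 counts in byMM1777 and byMM1827. Its level was 0 and 0 TPM in the dCas12e strains, against 25.5 and 18.7 TPM in the denAsCas12a strains, and it fell in the edgeR test (adjusted p = 0.0151). With a floor of 3 counts per library, which covers counting error only, its level was at least 124-fold lower in the dCas12e strains in the mean, at least 151-fold lower in the pair without ScRNA and at least 102-fold lower in the pair with ScRNA. The adjusted p from edgeR was 0.0627 without byMM1777 and the block, and the call was kept in 14 of the 15 fits that gave an adjusted p. In the S288C reference (R64) the gene lies at chrIII:83620-83997 on the plus strand, a single coding exon of 378 bases that shares no 31-base word with another place in the genome. Its first 300 bases (chrIII:83620-83919, from RefSeq) are printed because no read was assigned to the gene in either dCas12e strain.
YCL021W-A: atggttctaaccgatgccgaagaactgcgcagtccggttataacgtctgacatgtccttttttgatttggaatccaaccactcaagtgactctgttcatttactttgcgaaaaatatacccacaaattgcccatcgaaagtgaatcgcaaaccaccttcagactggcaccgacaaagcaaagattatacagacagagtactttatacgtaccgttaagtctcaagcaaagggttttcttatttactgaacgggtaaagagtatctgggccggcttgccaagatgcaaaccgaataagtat

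The gene ends 7326 bases before the start of LEU2, the leucine marker that the reporter plasmids carry and that the strains' own chromosome holds as the leu2-3_112 allele. Nearer neighbours, on the same side, are 2 reading frames of a Ty2 retrotransposon, YCL019W and YCL020W, whose reads are shared with other Ty copies and are uncertain. The next gene on the far side, KCC4, which encodes a kinase of the bud neck, was counted in all strains, with 3.37 and 2.79 TPM in the dCas12e strains against 4.50 and 3.63 TPM in the denAsCas12a strains. NFS1, the cysteine desulfurase gene beyond LEU2, had 135 and 177 TPM in the dCas12e strains, against 120 and 150 TPM in the denAsCas12a strains. LEU2 itself, 3-isopropylmalate dehydrogenase, was at 825 and 1095 TPM in the dCas12e strains, against 666 and 750.1 TPM in the denAsCas12a strains (log2 fold change 0.55 ± 0.20, SE, as for all values given after ±), with no overlap. Of the 19 genes drawn around LEU2, YCL021W-A alone had no count in both dCas12e libraries, and the reason was not tested.

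**Figure D1:**
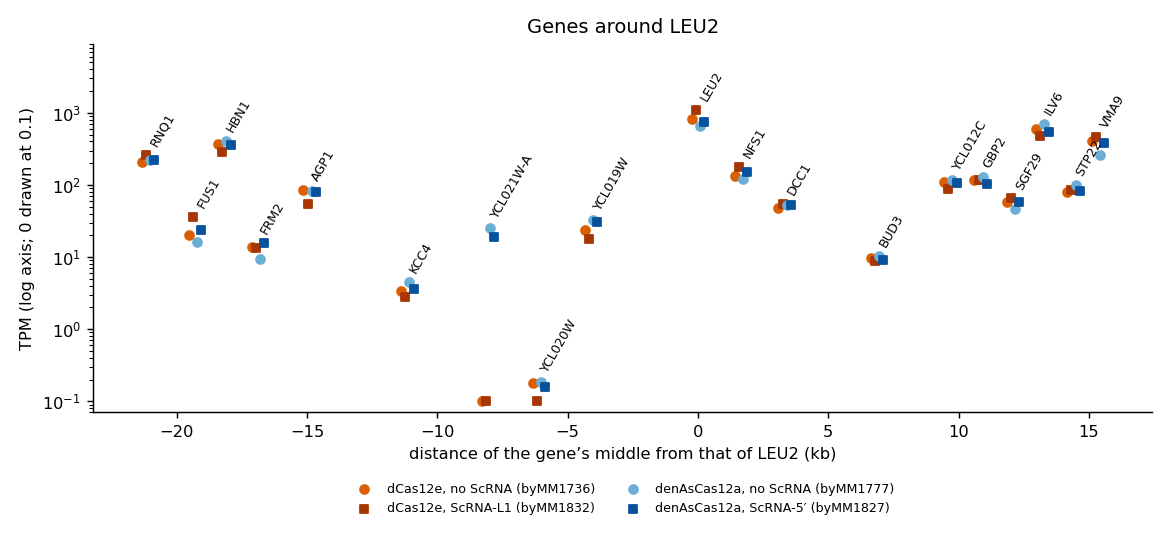
Level of the genes around LEU2 on chromosome III in TPM (log axis, 0 drawn at 0.1) against the distance in kilobases of each gene's middle from that of LEU2, with 1 point per library (orange, dCas12e; blue, denAsCas12a; circles, no ScRNA; squares, with ScRNA). YCL021W-A is at 0 in both dCas12e libraries and at 25.5 and 18.7 TPM in the denAsCas12a libraries, while its neighbours KCC4 and LEU2 were counted in every library.

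RPL41B encodes a ribosomal protein of the large subunit that is among the shortest proteins of the cell. It was at 361 and 810.2 TPM in the dCas12e strains, against 126 and 252 TPM in the denAsCas12a strains, and it rose by 1.73 ± 0.15 on the log2 scale in edgeR (adjusted p = 0.0293). Its duplicate RPL41A had 987 and 1622 TPM in the dCas12e strains, against 441 and 825 TPM in the denAsCas12a strains (log2 fold change 1.19 ± 0.18). Both values are uncertain, because only 18.8% of the 31-base words of either gene occur nowhere else in the genome and reads of the pair may have been split between them. The call was kept in 10 of 16 fits, with log2 fold changes between 1.04 and 2.41, and the adjusted p from edgeR was 0.649 without the block, 0.214 without byMM1832, 0.999 without byMM1777 and 0.668 without byMM1827.

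Ribosomal protein genes as a group were higher in the dCas12e strains. Of the 137 tested, 84 separated the strains upward (61.3%, against 9.55% of all genes) and 0 downward (against 21.1%). In edgeR, 93 had an unadjusted p under 0.05 with a higher level, where 5.72% of all genes did. All 137 had a positive log2 fold change after TMM scaling, between 0.023 and 1.73, with a median of 0.60 where the median of all genes was -0.01. Leaving aside the 33 that share sequence with a duplicate or overlap another gene, 60 of 104 separated the strains upward with a median of 0.58. Summed over the group, the level was 46958 and 68015 TPM in byMM1736 and byMM1832, against 39327 and 40217 TPM in byMM1777 and byMM1827. The strain with ScRNA-L1 was thus the highest and both denAsCas12a strains were close together, with byMM1736 in between.

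The median of the ribosomal protein genes stayed positive with any 1 library left out. Leaving out a library can only keep or raise the number of separating genes, so the numbers of upward genes could not have fallen. Without byMM1736, byMM1832, byMM1777 or byMM1827 the number of upward genes was 131, 85, 115 and 96 of 137, where 28.4%, 14.96%, 23.0% and 17.1% of all genes did so, and the median log2 fold change was 0.84, 0.36, 0.59 and 0.71. Within pairs the median log2 ratio was 0.39 without ScRNA and 0.79 with ScRNA. Relative to ACT1 the median was 0.33 and relative to total counts 0.50, where those of all genes were -0.27 and -0.11. A correction for gene length, chosen after the data were seen since these genes are short, left the median of the ribosomal protein genes at 0.53. This group was picked with earlier results of these data known, so its direction is a description.

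**Figure D2:**
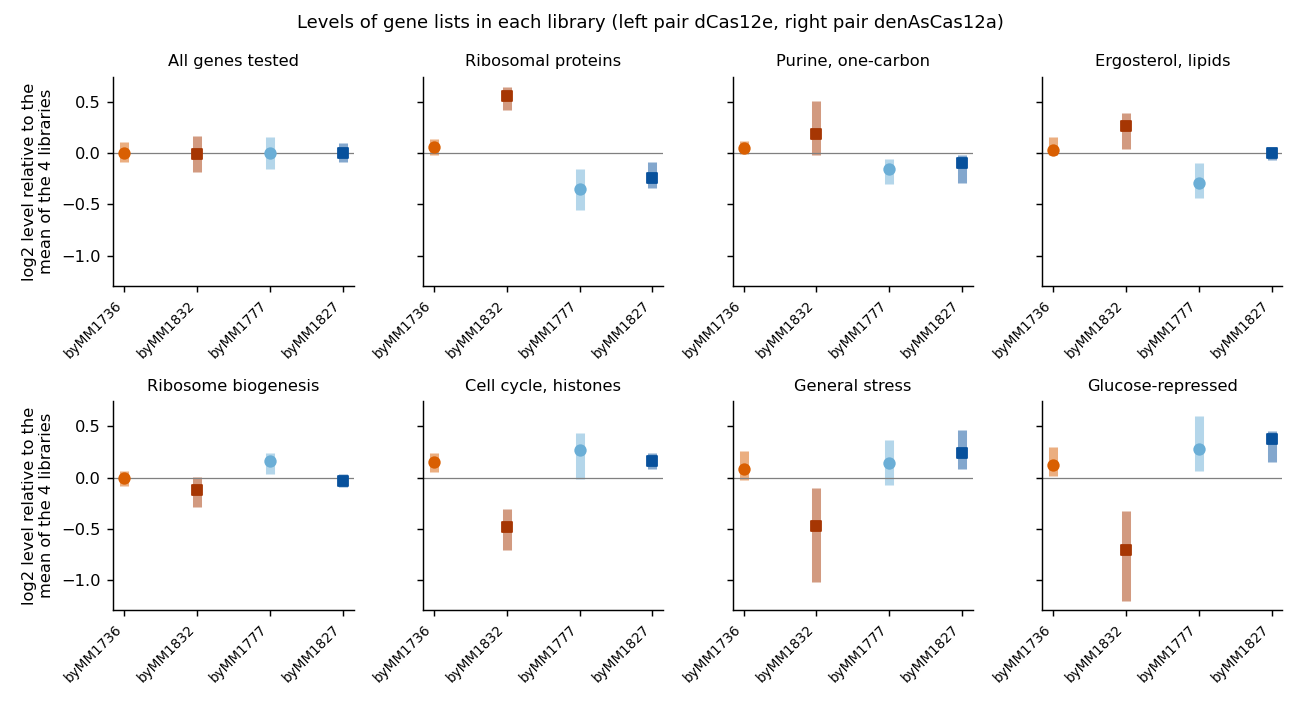
Median (point) and interquartile range (bar) of the log2 level of each group's genes, relative to the mean of the 4 libraries after TMM scaling, with the dCas12e libraries on the left and the denAsCas12a libraries on the right of each panel. Ribosomal protein genes are at medians of 0.06 and 0.56 in the dCas12e libraries, against -0.35 and -0.24 in the denAsCas12a libraries, while the general stress, glucose-repressed and cell cycle groups stand apart mostly in byMM1832.

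Among single ribosomal protein genes, RPL23B of the large subunit had the widest gap on TPM of any gene that was higher and had enough counts to be named, at 360.0 and 524 TPM in the dCas12e strains, against 237 and 235 TPM in the denAsCas12a strains (log2 fold change 1.01 ± 0.18). RPL29, another large-subunit protein, was at 171 and 262 TPM in the dCas12e strains, against 67.5 and 121 TPM in the denAsCas12a strains (1.346 ± 0.17). RPS28A, of the small subunit, was at 788 and 1214 TPM in the dCas12e strains, against 247 and 684 TPM in the denAsCas12a strains (1.37 ± 0.26). The lowest library of these genes was byMM1777 or byMM1827 and the highest was byMM1832 each time. RPS7A, of the small subunit, had 226 and 389 TPM in the dCas12e strains, against 145 and 169.5 TPM in the denAsCas12a strains (1.04 ± 0.18). RPL10, which joins the large subunit late in its assembly, had 1227 and 2082 TPM in the dCas12e strains, against 791 and 926 TPM in the denAsCas12a strains (1.02 ± 0.21). RPP1B, a protein of the ribosomal stalk, had 353 and 584 TPM in the dCas12e strains, against 175 and 297 TPM in the denAsCas12a strains (1.11 ± 0.17). None of these 6 genes passed the adjusted test, with adjusted p from edgeR between 0.132 for RPL29 and 0.327 for RPL10. Other members separated by little: RPL39 had 239 and 348 TPM in the dCas12e strains, against 106 and 225 TPM in the denAsCas12a strains (1.02 ± 0.20), and RPL3 had 864 and 1072 TPM in the dCas12e strains, against 666 and 854 TPM in the denAsCas12a strains (0.48 ± 0.21), where the nearest libraries differed by 1.01-fold.

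Sequence upstream of these genes was searched for the core letters of a Rap1 site, ACCCNNACA, on both strands over the 500 bases before the start codon in R64. The motif occurred in 39.4% of the 137 ribosomal protein genes, in 23.6% of the 140 separating genes with at least 1.5-fold higher level, in 3.68% of the 163 with at least 1.5-fold lower level and in 5.398% of all 5873 genes searched. Of the 164 separating genes at least 1.5-fold higher on the TMM scale, 68 (41.5%) were ribosomal protein genes, which bears on the second share. Windows of RPL23B (chrV:396369-396668, plus strand) and RPS7A (chrXV:505294-505593, plus strand) are shown because both genes separated the strains and hold matches, which begin 370 bases before the start codon of RPL23B and 473 and 498 bases before that of RPS7A. They are RefSeq sequence of S288C, not of CEN.PK2-1C, and capitals mark the matches.
RPL23B: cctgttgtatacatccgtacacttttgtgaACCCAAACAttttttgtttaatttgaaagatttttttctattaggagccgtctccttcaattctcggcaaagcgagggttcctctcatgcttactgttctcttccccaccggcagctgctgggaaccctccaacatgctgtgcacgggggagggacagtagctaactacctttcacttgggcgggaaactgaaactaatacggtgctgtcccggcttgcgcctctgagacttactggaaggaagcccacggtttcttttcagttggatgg
RPS7A: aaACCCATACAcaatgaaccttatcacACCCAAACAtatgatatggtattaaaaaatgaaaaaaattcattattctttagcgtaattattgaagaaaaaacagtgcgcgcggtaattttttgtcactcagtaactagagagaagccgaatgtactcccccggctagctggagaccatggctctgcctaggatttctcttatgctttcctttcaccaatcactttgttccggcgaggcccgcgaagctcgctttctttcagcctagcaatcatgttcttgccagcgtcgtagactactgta
A match is a run of letters and was not shown to be bound.

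The genes with the widest upward gaps included further genes of several kinds. SEC53, the phosphomannomutase that makes mannose for glycoproteins, had 1006 and 1177 TPM in the dCas12e strains, against 701 and 719 TPM in the denAsCas12a strains (log2 fold change 0.74 ± 0.19), the nearest libraries being 1.40-fold apart. RPS21A, a small-subunit ribosomal protein gene, had 300.04 and 373 TPM in the dCas12e strains, against 155 and 222 TPM in the denAsCas12a strains (0.97 ± 0.17). DOG1, a sugar phosphatase, had 244 and 219 TPM in the dCas12e strains, against 148 and 162 TPM in the denAsCas12a strains (0.70 ± 0.19), and is uncertain because it shares sequence with DOG2. For SEC53 and DOG1 the libraries of a side lay closer to each other than the sides did, which was not so for RPS21A. Small nucleolar RNA genes, whose products guide changes to ribosomal RNA, were among them at low levels: SNR49 had 19.2 and 20.6 TPM in the dCas12e strains, against 13.5 and 12.1 TPM in the denAsCas12a strains, and SNR34 had 6.87 and 7.01 TPM in the dCas12e strains, against 2.43 and 5.08 TPM in the denAsCas12a strains. The 5S ribosomal RNA gene RDN5-1 had 72.6 and 94.4 TPM in the dCas12e strains, against 47.7 and 31.7 TPM in the denAsCas12a strains (1.21 ± 0.25). On the TMM scale its log2 gap between the nearest libraries, 0.82, was wider than the 0.68 of RPL23B. RDN5-1 is repeated in the genome and has no 31-base word of its own, so its value is uncertain, and such RNAs enter an mRNA library only in part. PAU1 had 36.3 and 43.4 TPM in the dCas12e strains, against 24.4 and 26.2 TPM in the denAsCas12a strains, and PAU14 had 33.7 and 39.9 TPM in the dCas12e strains, against 22.1 and 24.4 TPM in the denAsCas12a strains. Both belong to the seripauperin family of near-identical subtelomeric genes and cannot be counted apart. YOR268C, which has no known function, was at 3.80 and 3.79 TPM in the dCas12e strains, against 2.14 and 2.64 TPM in the denAsCas12a strains.

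**Figure D3:**
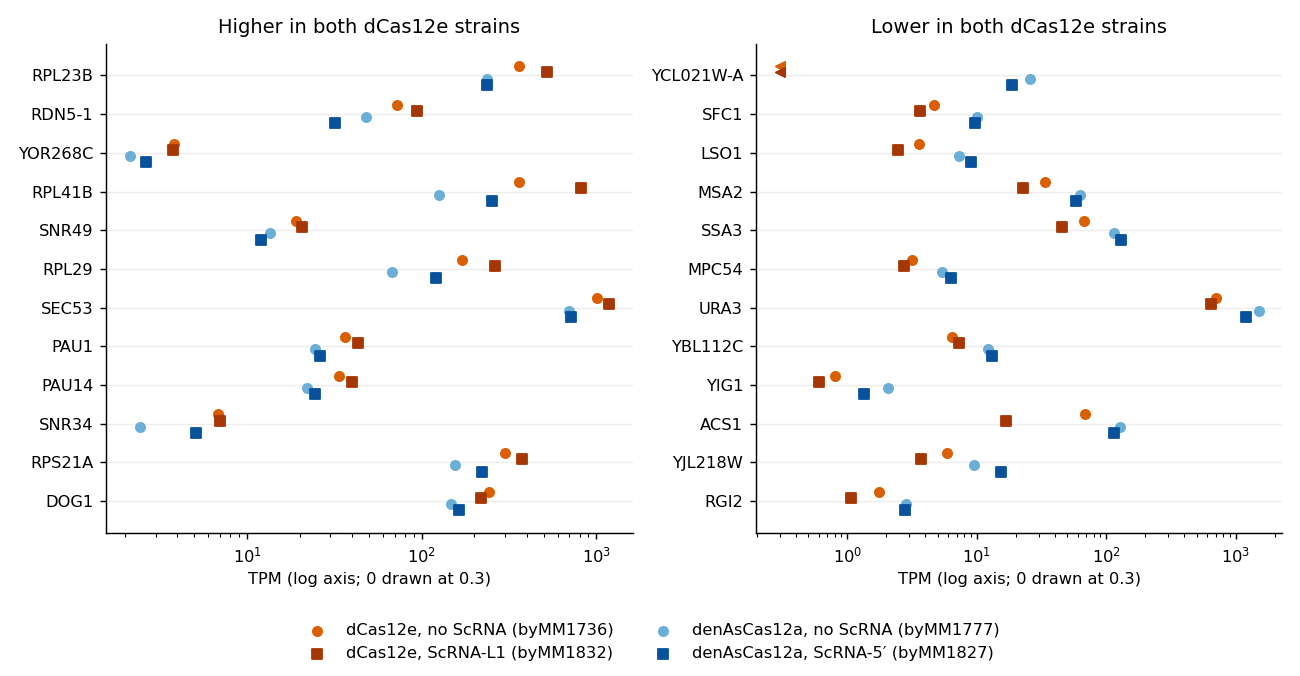
TPM (log axis) in each library of the 12 genes with the widest gap among those higher in both dCas12e strains (left) and the 12 with the widest gap among those lower (right), with points as in the legend. Apart from YCL021W-A, at 0 in the dCas12e libraries (arrowheads drawn at 0.3), the widest downward gaps are those of SFC1 and LSO1, and RPL23B heads the upward ones.

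Genes of purine synthesis leaned the same way. Of the 18 tested, 7 separated the strains upward (38.9%, against 9.55% of all genes) and 1 downward (against 21.1%), 8 had an unadjusted p under 0.05 with a higher level (against 5.72% of all genes), and the median log2 fold change was 0.32. ADE17, which carries out the last steps to inosine monophosphate, had 59.6 and 129 TPM in the dCas12e strains, against 56.1 and 36.6 TPM in the denAsCas12a strains (1.08 ± 0.35). ADE13, adenylosuccinate lyase, had 82.9 and 169 TPM in the dCas12e strains, against 73.6 and 71.7 TPM in the denAsCas12a strains (0.83 ± 0.24). For both genes byMM1832 stood well above the other 3 libraries. ADE6 had 52.3 and 78.4 TPM in the dCas12e strains, against 40.6 and 42.1 TPM in the denAsCas12a strains (0.76 ± 0.18), and ADE1 had 174 and 285 TPM in the dCas12e strains, against 156 and 129 TPM in the denAsCas12a strains (0.77 ± 0.23). Without byMM1832, 10 of the 18 were higher than both denAsCas12a strains, where 14.96% of all genes were, and the median was 0.30. Relative to ACT1 the list's median was 0.06, where that of all genes was -0.27. The Gcn4 site TGACTC, which the purine regulators Bas1 and Gcn4 both read, occurred on either strand in 77.8% of these 18 genes and in 12.8% of all genes. The window of ADE17 (chrXIII:509381-509680, minus strand, R64) is shown because this gene had the largest fold change of the list, and its matches, in capitals, begin 177 and 307 bases before the start codon.
ADE17: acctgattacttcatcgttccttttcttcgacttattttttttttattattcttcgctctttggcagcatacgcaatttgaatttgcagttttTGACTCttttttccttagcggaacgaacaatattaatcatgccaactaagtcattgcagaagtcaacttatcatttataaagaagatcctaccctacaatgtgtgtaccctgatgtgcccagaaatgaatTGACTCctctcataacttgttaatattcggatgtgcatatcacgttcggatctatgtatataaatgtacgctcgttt

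IMP dehydrogenase, the entry step to guanine nucleotides, followed. IMD4 had 109.8 and 192 TPM in the dCas12e strains, against 90.9 and 96.9 TPM in the denAsCas12a strains (log2 fold change 0.76 ± 0.20). IMD3 had 60.2 and 125 TPM in the dCas12e strains, against 52.4 and 57.7 TPM in the denAsCas12a strains (0.78 ± 0.22). IMD2 did not separate the strains, at 60.6 and 267 TPM in the dCas12e strains, against 50.7 and 91.7 TPM in the denAsCas12a strains. The last 2 share sequence with each other and are uncertain. Of the 6 guanine nucleotide genes, 2 separated the strains, both upward (33.3%, against 9.55% of all genes). The median of the 6 was 0.40, but 0.0095 without byMM1832, where the log2 fold change was 0.26 for IMD3, 0.36 for IMD4 and -0.12 for IMD2.

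Ergosterol and lipid genes held the next largest share of upward separations, 13 of 30 (43.3%, against 9.55% of all genes) with 1 downward (against 21.1%). Their median log2 fold change was 0.31, and 0.05 relative to ACT1, where that of all genes was -0.27. FAS1, a subunit of fatty acid synthase, had 153 and 141 TPM in the dCas12e strains, against 104 and 115 TPM in the denAsCas12a strains (0.55 ± 0.22). OPI3, a methyltransferase of phosphatidylcholine synthesis, had 6317 and 6680.0 TPM in the dCas12e strains, against 4471 and 5449.6 TPM in the denAsCas12a strains (0.52 ± 0.23). HMG1, which encodes HMG-CoA reductase of sterol synthesis, had 33.6 and 35.7 TPM in the dCas12e strains, against 24.3 and 28.7 TPM in the denAsCas12a strains (0.51 ± 0.18). These separations were narrow, and the median leaned on 1 library of each side. It was 0.17 without byMM1832 (14 upward and 2 downward, where 14.96% and 33.3% of all genes were) and 0.13 without byMM1777 (15 upward and 6 downward, where 23.0% and 31.7% were). FAS2, the other fatty acid synthase subunit, had 530.3 and 674 TPM in the dCas12e strains, against 413 and 512 TPM in the denAsCas12a strains, and ERG1, squalene epoxidase, had 248 and 341 TPM in the dCas12e strains, against 246 and 244 TPM in the denAsCas12a strains, where the nearest libraries differed by 1.01-fold.

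Glycolytic and fermentation genes separated the strains upward in 7 of 27 cases (25.9%, against 9.55% of all genes) and downward in 2 (against 21.1%). Their median log2 fold change was 0.31, and 0.04 relative to ACT1, where that of all genes was -0.27. TPI1, triose phosphate isomerase, had 4898 and 5438 TPM in the dCas12e strains, against 1952 and 4233 TPM in the denAsCas12a strains (0.97 ± 0.32). ENO2, an enolase that shares sequence with ENO1 and is uncertain, had 8797 and 12479 TPM in the dCas12e strains, against 5149 and 8289 TPM in the denAsCas12a strains (0.81 ± 0.26). In both genes byMM1777 was below the other libraries, and without that library 10 of the 27 were upward and 6 downward, where 23.0% and 31.7% of all genes were, with a median of 0.11. The median was 0.20 without byMM1832. PDC6, a minor pyruvate decarboxylase, went the other way with 45.8 and 21.8 TPM in the dCas12e strains, against 59.2 and 73.0 TPM in the denAsCas12a strains (-0.93 ± 0.35). Respiratory chain and TCA cycle genes separated upward in 7 of 39 (17.9%) and downward in 0, but without byMM1736 8 were upward and 14 downward, where 28.4% and 40.8% of all genes were, and the median was 0.0068, against 0.14 with all 4 libraries. COX4 of cytochrome c oxidase had 567 and 453 TPM in the dCas12e strains, against 357 and 377 TPM in the denAsCas12a strains (0.59 ± 0.21), and QCR9 of the cytochrome bc1 complex had 909 and 805 TPM in the dCas12e strains, against 621 and 704 TPM in the denAsCas12a strains (0.50 ± 0.19).

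Single upward members came from further groups. CAR1, arginase, had 169 and 341 TPM in the dCas12e strains, against 110.0 and 139.6 TPM in the denAsCas12a strains (log2 fold change 1.08 ± 0.19). FPR2, a prolyl isomerase of the endoplasmic reticulum, had 409 and 661 TPM in the dCas12e strains, against 355 and 337 TPM in the denAsCas12a strains (0.71 ± 0.20). PRM10, a membrane protein gene induced by pheromone, had 39.7 and 100.2 TPM in the dCas12e strains, against 19.1 and 38.9 TPM in the denAsCas12a strains (1.33 ± 0.15). PRM10 came nearest to the threshold after the 2 called genes, with an adjusted p of 0.0908 in edgeR, although byMM1736 and byMM1827 differed by 1.02-fold only. Iron genes separated upward in 3 of 17 (17.6%, against 9.55% of all genes) and downward in 0 (against 21.1%). TIS11, which degrades mRNAs of iron-using proteins, had 29.5 and 40.3 TPM in the dCas12e strains, against 24.3 and 24.4 TPM in the denAsCas12a strains (0.63 ± 0.16), and FTR1, the high-affinity iron permease, had 73.0 and 108 TPM in the dCas12e strains, against 64.6 and 58.8 TPM in the denAsCas12a strains (0.65 ± 0.19).

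Downward, the widest gaps after YCL021W-A belonged to genes of several kinds, many of them at low levels. URA3 and ACS1, also among them, are given with the circuit genes and the glucose-repressed genes. SFC1, the succinate-fumarate carrier of mitochondria, had 4.66 and 3.65 TPM in the dCas12e strains, against 10.02 and 9.69 TPM in the denAsCas12a strains (log2 fold change -1.13 ± 0.23). LSO1, a small protein gene responsive to iron, had 3.60 and 2.45 TPM in the dCas12e strains, against 7.27 and 8.94 TPM in the denAsCas12a strains (-1.29 ± 0.36). In both the nearest libraries were over 2-fold apart. MSA2, a regulator of G1-specific transcription, had 33.4 and 22.7 TPM in the dCas12e strains, against 62.3 and 57.9 TPM in the denAsCas12a strains (-1.001 ± 0.19). SSA3, a stress-induced Hsp70 chaperone, had 66.8 and 45.4 TPM in the dCas12e strains, against 115 and 129 TPM in the denAsCas12a strains (-1.02 ± 0.24). For SFC1, LSO1, MSA2 and SSA3 the TPM of the dCas12e libraries differed by a larger ratio than that of the denAsCas12a libraries, with byMM1832 the lowest library. MPC54, of the meiotic plaque of the spindle pole body, had 3.14 and 2.73 TPM in the dCas12e strains, against 5.4001 and 6.36 TPM in the denAsCas12a strains. YIG1 had 0.799 and 0.606 TPM in the dCas12e strains, against 2.04 and 1.34 TPM in the denAsCas12a strains, and RGI2, a gene of respiratory growth, had 1.75 and 1.07 TPM in the dCas12e strains, against 2.82 and 2.80 TPM in the denAsCas12a strains. YJL218W, a putative acetyltransferase gene, had 5.92 and 3.72 TPM in the dCas12e strains, against 9.52 and 15.4 TPM in the denAsCas12a strains. The subtelomeric YBL112C, at 6.397 and 7.22 TPM in the dCas12e strains against 12.2 and 13.1 TPM in the denAsCas12a strains, has no sequence of its own and is uncertain. None of these genes passed the adjusted edgeR test, the lowest adjusted p among them being 0.315 for MSA2.

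Genes repressed by glucose were lower mainly in the dCas12e strain with ScRNA-L1. Of the 24 tested, 11 separated the strains downward (45.8%, against 21.1% of all genes) and 1 upward, with a median log2 fold change of -0.59. ACS1, acetyl-CoA synthetase, had 68.6 and 16.7 TPM in the dCas12e strains, against 126 and 114 TPM in the denAsCas12a strains (-1.70 ± 0.46). JEN1, the lactate and pyruvate permease, had 94.7 and 33.1 TPM in the dCas12e strains, against 154 and 114 TPM in the denAsCas12a strains (-1.12 ± 0.30). POT1, a thiolase of fatty acid oxidation in peroxisomes, had 129 and 56.4 TPM in the dCas12e strains, against 200.3 and 198 TPM in the denAsCas12a strains (-1.10 ± 0.32). In all 3 the lowest library was byMM1832, and byMM1736 also lay below both denAsCas12a libraries. ADH2, the alcohol dehydrogenase that consumes ethanol, differed little at 44.0 and 42.3 TPM in the dCas12e strains, against 52.8 and 51.5 TPM in the denAsCas12a strains (-0.15 ± 0.14). Within pairs the median log2 ratio of the list was -0.12 without ScRNA and -1.16 with ScRNA. Without byMM1832 the same number, 11 of 24, was downward, but 33.3% of all genes then were and the list's median was -0.10.

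General stress genes showed the same pattern more weakly. Of the 40 tested, 14 separated the strains downward (35.0%, against 21.1% of all genes) and 1 upward. In edgeR, 13 had an unadjusted p under 0.05 with a lower level, where 6.36% of all genes did. The median log2 fold change was -0.48. DDR2, a stress gene often used as a marker of Msn2 and Msn4 activity, had 1601 and 479 TPM in the dCas12e strains, against 2661 and 2122 TPM in the denAsCas12a strains (-1.31 ± 0.37). GPH1, glycogen phosphorylase, had 212 and 51.8 TPM in the dCas12e strains, against 290.3 and 229 TPM in the denAsCas12a strains (-1.17 ± 0.43). CYC7, the second form of cytochrome c, had 4.54 and 2.08 TPM in the dCas12e strains, against 10.2 and 6.05 TPM in the denAsCas12a strains (-1.21 ± 0.31). In each, byMM1832 was the lowest library. ALD4, a mitochondrial aldehyde dehydrogenase, had 518 and 199 TPM in the dCas12e strains, against 729 and 671 TPM in the denAsCas12a strains (-0.9997 ± 0.35). HSP12, a membrane-protecting stress protein, overlapped between the sides, with 1470.3 and 524 TPM in the dCas12e strains, against 1262 and 2163 TPM in the denAsCas12a strains. Without byMM1832, 15 of the 40 genes were downward, which is 37.5% where 33.3% of all genes were, and the median was -0.14, so that in the other 3 libraries the group stood close to all genes. Its median within pairs was -0.06 without ScRNA and -0.77 with ScRNA, and byMM1832 was the lowest library at a median log2 level of -0.47, against 0.09 in byMM1736, 0.14 in byMM1777 and 0.24 in byMM1827.

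The stress response element AGGGG was counted on both strands over the same 500 bases. It occurred in 92.5% of the general stress genes, 45.8% of the glucose-repressed genes, 44.2% of the 163 separating genes at least 1.5-fold lower, 28.6% of the 140 at least 1.5-fold higher and 34.2% of all genes. The 4 motifs used here were counted separately and may overlap each other. Windows of ACS1 (chrI:45123-45422, minus strand, R64) and DDR2 (chrXV:231856-232155, minus strand, R64) are shown as the members with the lowest fold changes of their lists. The matches within the windows, in capitals and read on the other strand as CCCCT, begin 341 and 399 bases before the start codon of ACS1 and 175, 203 and 248 bases before that of DDR2. DDR2 held 4 matches in the 500 bases, of which 3 lie in its window.
ACS1: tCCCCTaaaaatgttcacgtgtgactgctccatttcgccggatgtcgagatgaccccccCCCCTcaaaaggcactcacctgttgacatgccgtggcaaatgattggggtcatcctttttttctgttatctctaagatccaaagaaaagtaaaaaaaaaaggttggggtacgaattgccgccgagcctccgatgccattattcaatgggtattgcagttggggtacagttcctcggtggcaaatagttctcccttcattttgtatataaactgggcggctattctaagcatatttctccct
DDR2: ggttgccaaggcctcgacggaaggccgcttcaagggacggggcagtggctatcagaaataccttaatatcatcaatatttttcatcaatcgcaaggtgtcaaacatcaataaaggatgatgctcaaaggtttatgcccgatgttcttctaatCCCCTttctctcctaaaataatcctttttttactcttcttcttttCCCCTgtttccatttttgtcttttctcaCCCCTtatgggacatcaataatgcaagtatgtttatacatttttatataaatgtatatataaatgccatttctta

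Cell cycle and histone genes separated the strains downward in 11 of 27 cases (40.7%, against 21.1% of all genes) and upward in 0 (against 9.55%), with a median log2 fold change of -0.38. DSE1, a gene expressed in daughter cells, had 32.4 and 15.9 TPM in the dCas12e strains, against 55.4 and 40.2 TPM in the denAsCas12a strains (-0.93 ± 0.21), and SCW11, a cell wall glucanase-like protein also made in daughters, had 48.3 and 25.6 TPM in the dCas12e strains, against 87.9 and 56.2 TPM in the denAsCas12a strains (-0.87 ± 0.19). CLB1, a mitotic cyclin, had 24.4 and 10.6 TPM in the dCas12e strains, against 40.8 and 26.1 TPM in the denAsCas12a strains (-0.89 ± 0.20). The genes named peak at different phases, from G1 to mitosis. PCL9, a cyclin of early G1, had 33.7 and 22.5 TPM in the dCas12e strains, against 46.5 and 50.4 TPM in the denAsCas12a strains (-0.69 ± 0.22). CLN1, a G1 cyclin, separated on TPM alone, with 80.2 and 32.9 TPM in the dCas12e strains, against 119.7 and 81.3 TPM in the denAsCas12a strains. This group too leaned on byMM1832: without it 11 of 27 were downward, where 33.3% of all genes were, and the median was -0.10.

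DNA damage genes separated downward in 7 of 18 cases (38.9%) and recombination genes in 6 of 14 (42.9%), against 21.1% of all genes, with 0 upward in both. The median of the DNA damage genes was -0.25, but -0.086 without byMM1832 and -0.035 without byMM1827, and that of the recombination genes was -0.27, but -0.17 without byMM1832. RNR1, the large subunit of ribonucleotide reductase, had 45.1 and 23.2 TPM in the dCas12e strains, against 64.0 and 74.8 TPM in the denAsCas12a strains (log2 fold change -0.97 ± 0.32). MAG1, a DNA glycosylase, had 33.0 and 23.8 TPM in the dCas12e strains, against 48.6 and 45.1 TPM in the denAsCas12a strains (-0.62 ± 0.18). In both byMM1832 was the lowest library. RAD55, a gene of recombinational repair, had 16.4 and 13.8 TPM in the dCas12e strains, against 23.8 and 21.3 TPM in the denAsCas12a strains (-0.46 ± 0.16). RAD54, a DNA translocase of the same pathway, had 22.0 and 20.02 TPM in the dCas12e strains, against 29.8 and 29.2 TPM in the denAsCas12a strains (-0.37 ± 0.16). The libraries of each side were close together for RAD54, but less so for RAD52 of the same pathway, with 76.8 and 66.7 TPM in the dCas12e strains, against 107 and 87.0 TPM in the denAsCas12a strains (-0.31 ± 0.16), where the nearest libraries of opposite sides differed by 1.13-fold. SAE3, a meiotic recombination gene, had the largest ratio but only 10 and 6 counts in the dCas12e libraries, against 20 and 32 counts in the denAsCas12a libraries. HED1, a meiotic gene that the ScRNA-5′ of byMM1827 targets, overlapped between the sides, with 16.6 and 8.43 TPM in the dCas12e strains, against 15.8 and 30.3 TPM in the denAsCas12a strains.

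Proteasome genes were lower by little but often, in 13 of 32 cases (40.6%, against 21.1% of all genes) with 0 upward and a median log2 fold change of -0.08. PRE1, a subunit of the catalytic core, had 224 and 186 TPM in the dCas12e strains, against 331 and 316 TPM in the denAsCas12a strains (-0.54 ± 0.18). RPN5, of the regulatory lid, had 104 and 81.3 TPM in the dCas12e strains, against 180.4 and 113 TPM in the denAsCas12a strains (-0.51 ± 0.16), and RPN3, also of the lid, had 235 and 224 TPM in the dCas12e strains, against 365 and 283 TPM in the denAsCas12a strains (-0.36 ± 0.19). RPN4, the transcription factor of the proteasome genes, had 125 and 121 TPM in the dCas12e strains, against 221 and 141 TPM in the denAsCas12a strains (-0.40 ± 0.19). On TPM the highest library was byMM1777 for all 4 genes, but on the TMM scale PRE1 was highest in byMM1827. Without byMM1777 26 of 32 were downward, where 31.7% of all genes were, and without byMM1832 14 of 32, where 33.3% were, with a median of -0.042. Without byMM1827, 14 were downward and 6 upward, and the median was -0.0088, where 38.0% and 17.1% of all genes were downward and upward.

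Genes of ribosome biogenesis, which make and fold ribosomal RNA and assemble the subunits, did not go with the ribosomal protein genes. Of the 40 tested, 13 separated downward (32.5%, against 21.1% of all genes) and 1 upward, and the median log2 fold change was -0.12. MAK5, an RNA helicase of large-subunit assembly, had 6.96 and 6.19 TPM in the dCas12e strains, against 14.1 and 9.66 TPM in the denAsCas12a strains (-0.71 ± 0.16). NOP7, another assembly factor of the large subunit, had 12.9 and 10.6 TPM in the dCas12e strains, against 27.8 and 14.6 TPM in the denAsCas12a strains (-0.66 ± 0.17). DBP9, also a helicase, had 19.1 and 15.04 TPM in the dCas12e strains, against 29.0 and 20.98 TPM in the denAsCas12a strains (-0.42 ± 0.14). The top library was byMM1777 in all 3, as it was for NMD3, the export adaptor of the large subunit, with 32.4 and 28.5 TPM in the dCas12e strains, against 51.3 and 39.1 TPM in the denAsCas12a strains. Without byMM1777, 15 of 40 were downward (37.5%, where 31.7% of all genes were) and 9 upward, with a median of -0.041. The median was -0.066 without byMM1832 and -0.22 without byMM1827. The PAC motif GATGAG, which marks many of these genes, occurred on either strand in 92.5% of them, in 21.9% of the ribosomal protein genes and in 28.03% of all genes.

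Besides YCL021W-A, the smallest p-values among lower genes belonged to 4 genes, in 2 of which the libraries overlapped. NRS1, a regulator of cell cycle start under poor nitrogen, had 70.7 and 26.2 TPM in the dCas12e strains, against 185 and 80.5 TPM in the denAsCas12a strains (log2 fold change -1.38 ± 0.17). ISF1, a gene linked to respiration, had 67.9 and 23.6 TPM in the dCas12e strains, against 147 and 49.97 TPM in the denAsCas12a strains (-0.98 ± 0.16). YJR115W, of unknown function, had 84.1 and 29.3 TPM in the dCas12e strains, against 169 and 75.4 TPM in the denAsCas12a strains (-1.06 ± 0.17). In the last 2 genes byMM1736 lay above byMM1827, so the libraries overlapped. The fit with the ScRNA block compares within pairs. The TPM ratios of the pairs were close for ISF1, at 0.462 and 0.471, and less so for YJR115W. ATG39, a receptor for autophagy of the nuclear envelope, had 17.9 and 8.96 TPM in the dCas12e strains, against 35.7 and 23.9 TPM in the denAsCas12a strains (-1.08 ± 0.19). Their adjusted p in edgeR ran from 0.132 for NRS1 to 0.302 for the other 3.

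The genes used to build the circuits were read directly. URA3, the marker on the Cas plasmids, had 706 and 646 TPM in the dCas12e strains, against 1494 and 1195 TPM in the denAsCas12a strains (log2 fold change -0.86 ± 0.20, adjusted p = 0.327 in edgeR), and was lower in both pairs, at ratios of 0.473 without and 0.540 with ScRNA. TRP1, the marker on the activator plasmid, overlapped at 399 and 328 TPM in the dCas12e strains, against 407 and 312 TPM in the denAsCas12a strains. HIS3, the marker on the ScRNA plasmids, followed the ScRNA, with 255.3 and 2770.3 TPM in the dCas12e strains, against 207 and 5309 TPM in the denAsCas12a strains. Reads of a marker come from the copy brought by the integrated plasmid and, where the strain's own allele is still transcribed, from that too. These cannot be told apart. TDH3, whose promoter precedes both Cas genes by the paper's methods and whose own counts are uncertain for shared sequence with TDH2, had 24403 and 23829 TPM in the dCas12e strains, against 18698 and 25784 TPM in the denAsCas12a strains. ADH1, whose promoter drives the activator, had 2373 and 3567 TPM in the dCas12e strains, against 1942 and 2553 TPM in the denAsCas12a strains, and CYC1, which lends the reporter its core promoter, had 1695 and 1276 TPM in the dCas12e strains, against 1381 and 1277 TPM in the denAsCas12a strains. All 3 overlapped between the sides on TPM. GAL7, the target of ScRNA-L1, had 2.05 and 3.53 TPM in the dCas12e strains, against 1.62 and 2.70 TPM in the denAsCas12a strains, and also overlapped. ACT1, used as an alternative scale, had 3339 and 3575 TPM in the dCas12e strains, against 2902 and 3374 TPM in the denAsCas12a strains.

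The a-factor genes parted. MFA1 had 713 and 869 TPM in the dCas12e strains, against 528 and 640.3 TPM in the denAsCas12a strains (log2 fold change 0.56 ± 0.16), while MFA2, which encodes the same pheromone, had 1139 and 625 TPM in the dCas12e strains, against 1506 and 1669.6 TPM in the denAsCas12a strains (-0.79 ± 0.29). Both separated the strains, in opposite directions. Of the 20 mating genes, 1 was upward (5%, against 9.55% of all genes) and 5 were downward (25%, against 21.1%), shares near those of all genes.

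The remaining groups are given here as upward and downward counts of the genes tested. Upward members were the more frequent in zinc genes (5 and 1 of 16), aromatic amino acid synthesis (4 and 0 of 14), pyrimidine synthesis (3 and 1 of 11), the unfolded protein response (3 and 0 of 16) and histidine synthesis (2 and 1 of 7). In that order their upward shares were 31.25%, 28.6%, 27.3%, 18.75% and 28.6%, against 9.55% of all genes. In other groups downward members outnumbered upward ones, as they did among all genes. These were oxidative stress (3 and 5 of 22), Mediator and SAGA (3 and 5 of 37), which VP64 contacts, phosphate (0 and 5 of 17), cell wall (2 and 4 of 26), heat shock (2 and 3 of 24), subtelomeric families (0 and 3 of 18), amino acid permeases (1 and 2 of 28) and sulfate assimilation (0 and 2 of 19). Median log2 fold changes were nonetheless positive for heat shock (0.17), subtelomeric families (0.14), Mediator and SAGA (0.034) and amino acid permeases (0.0004). CTA1, the peroxisomal catalase of the oxidative stress group, had 58.3 and 27.3 TPM in the dCas12e strains, against 99.4 and 71.3 TPM in the denAsCas12a strains (log2 fold change -0.95 ± 0.23). AAD6, of the subtelomeric families and uncertain for shared sequence, had 267 and 109 TPM in the dCas12e strains, against 332 and 351 TPM in the denAsCas12a strains (-0.88 ± 0.36). MNC1, the upward member of the copper group, had 493 and 1535 TPM in the dCas12e strains, against 327 and 442 TPM in the denAsCas12a strains (1.32 ± 0.26). Single genes at most separated either way in arginine synthesis (1 and 0 of 11), galactose (1 and 0 of 10), copper (1 and 1 of 8), leucine synthesis (1 and 1 of 12), hexose transport (1 and 1 of 16), thiamine (0 and 0 of 17) and lysine synthesis (0 and 0 of 9), as in the 2 mitochondrial genes tested (0 and 0). Where downward members outnumbered upward ones, their share ran from 7.14% (amino acid permeases) to 29.4% (phosphate), against 21.1% of all genes. Relative to ACT1, where all genes shift by -0.27, the medians of the zinc, aromatic, histidine, pyrimidine, unfolded protein response, heat shock, iron and respiratory groups were below 0.

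**Figure D4:**
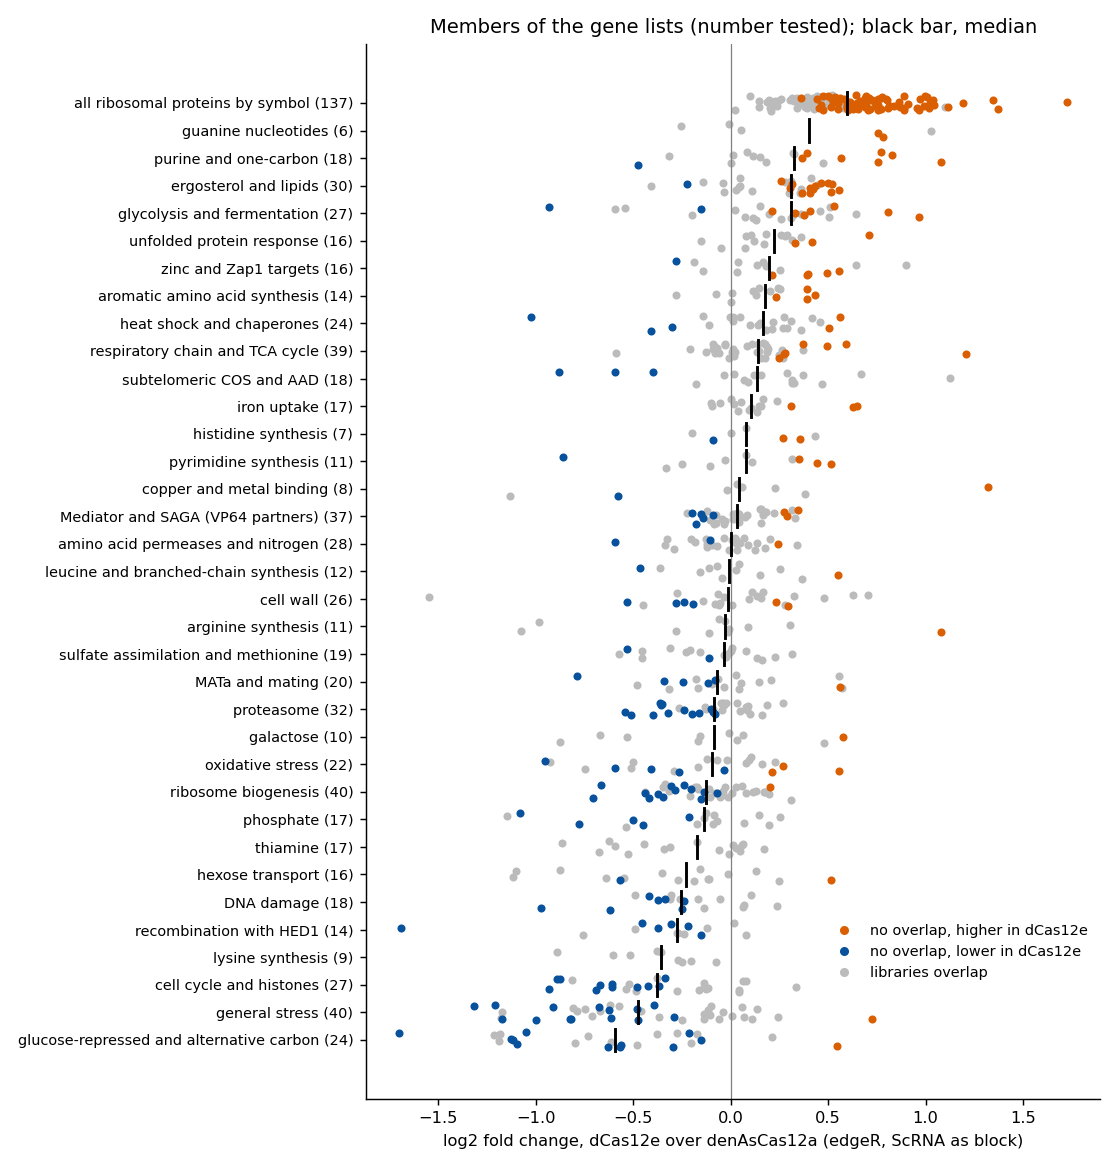
Log2 fold change (edgeR with ScRNA as a block, dCas12e over denAsCas12a) of every tested member of each gene group, ordered by the median (black bar), with orange and blue for genes whose libraries do not overlap and grey for those that do. Ribosomal protein genes are at the top with a median of 0.60 and no member below 0, and glucose-repressed genes are at the bottom with a median of -0.59.

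Between the strains without ScRNA, 78 genes were at least 2-fold higher in byMM1736 than in byMM1777 (1.30% of the genes tested, TMM scale) and 29 at least 2-fold lower (0.483%). Between the strains with ScRNA, 68 genes were at least 2-fold higher in byMM1832 than in byMM1827 (1.13%) and 186 at least 2-fold lower (3.09%). The pairs share no library. Of the 78 genes, 9 were also 2-fold higher with ScRNA and 60 had the same sign, and of the 29 genes, 7 were also 2-fold lower and 16 had the same sign. The median log2 ratio with ScRNA was 0.25 over the 78 genes and -0.14 over the 29, against -0.0023 over all genes. With that median near the middle, a same sign alone says little. Over all tested genes the closest libraries were byMM1736 and byMM1827, of different Cas proteins (SD of log2 ratios 0.272, 28 genes 2-fold apart), and the farthest were byMM1832 and byMM1777 (SD 0.587, 421 genes 2-fold apart). The commonest orders of the 4 libraries put byMM1832 and byMM1777 at the ends, with byMM1832 > byMM1736 > byMM1827 > byMM1777 in 11.0% of genes and the reverse in 10.2%. Separation by Cas protein was thus partly carried by the 2 most distant libraries, and what sets those apart was not tested.

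**Figure D5:**
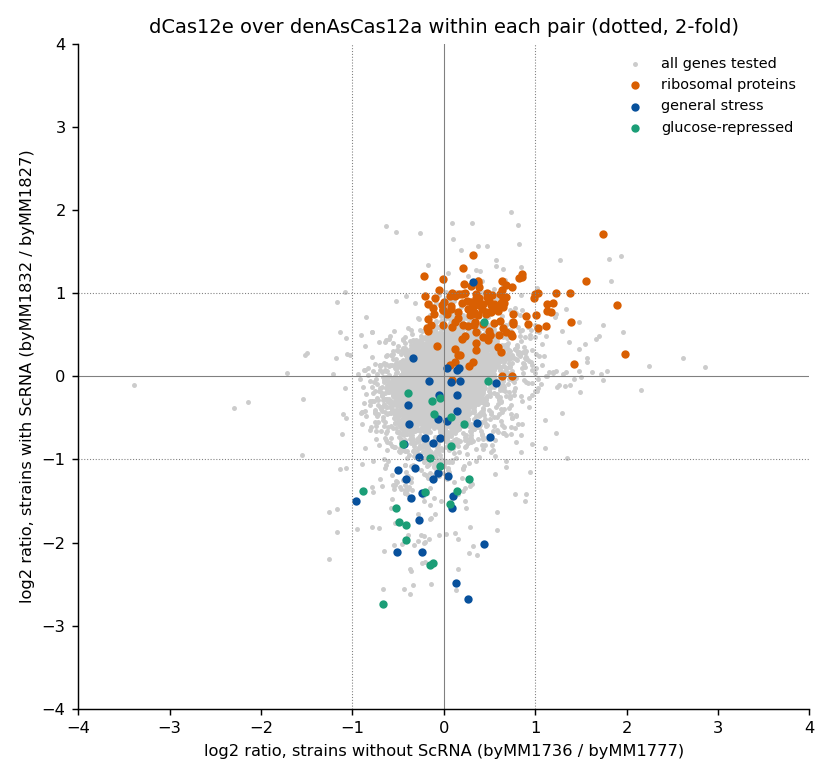
Log2 ratio of dCas12e to denAsCas12a after TMM scaling in the strains with ScRNA (byMM1832 over byMM1827, vertical) against the ratio in the strains without ScRNA (byMM1736 over byMM1777, horizontal), 1 point per tested gene, dotted lines at 2-fold and 6 genes outside the axes. Ribosomal protein genes lie mostly in the upper right with medians of 0.79 and 0.39, and general stress and glucose-repressed genes stretch downward, with medians of -0.77 and -1.16 on the vertical axis and -0.06 and -0.12 on the horizontal axis.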

How the data were processed

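Total RNA (Trizol) of 4 strains, 1 culture each, was made into mRNA libraries and sequenced by a service provider. The submitters' processing notes name FastQC, Trimmomatic, HISAT2, bedtools, StringTie and DESeq2; versions, genome build and annotation are not given in the sources used here. The authors deposited whole read counts per gene and TPM per gene. Each table holds 2 columns of other strains, which were not used, and the authors' own comparison tables, which hold fold changes and p-values, were not used.

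Groups came from the strain names in the labels. Genes averaging 10 counts or more were fitted in edgeR 4.0.16 (quasi-likelihood, TMM, ScRNA presence as a block, Benjamini-Hochberg adjustment), and SE is the log2 fold change divided by the root of F. DESeq2 1.42.0 and limma 3.58.1 (on log2 of TPM plus 1 or 0.1) were alternatives, besides other scalings, filters and each library left out. The fit was also run on simulated counts with less spread between libraries than these data. That run does not show how many true changes the fit finds here. Depth was 37275559 to 54013763 counts, and 3 counts per library were used as the floor where a count was 0.

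Members, gene groups and rules were chosen with earlier results of these data known. Genes could be named if used in the circuits, if among the 12 widest gaps on a side (at least 50 counts in the higher libraries), among the 5 smallest adjusted p on a side, among up to 4 largest non-overlapping changes of a group or its defining members, or opposite by over 2-fold between pairs. Not every gene that met these rules is described, and SPL2, GIT1 and LYS20 are among those left out. KCC4, NFS1, YCL019W and YCL020W were named after their values were seen. Of the genes tested, 463 share reads with a copy or overlap another gene (under 80% of 31-base words unique, or over 10% overlapped) and are called uncertain. R64 coordinates and sequence (RefSeq, S288C) were matched by systematic name for 6140 of 6418 genes.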

Additional observations from a re-analysis of the deposited data

Results flagged for a closer look

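In 2 genes the ratio of dCas12e to denAsCas12a went in opposite directions by over 2-fold in the pairs without and with ScRNA; the difference between pairs was not tested, as each pair is 1 library against 1. CPP2 had 0 and 193 counts in byMM1736 and byMM1832, against 229 and 76 counts in byMM1777 and byMM1827, which gives log2 ratios of -6.47 without ScRNA (computed at a floor of 3 counts) and 1.56 with ScRNA. Its reading frame is wholly overlapped by another gene (100%), so the assignment of its reads is uncertain. YGR025W, of unknown function, had 47 and 122 counts in byMM1736 and byMM1832, against 83 and 70 counts in byMM1777 and byMM1827, with log2 ratios of -1.08 without ScRNA and 1.02 with ScRNA.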

How the results depend on the processing

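Called genes (higher, lower in dCas12e) numbered 1 and 1. They were 47 and 170 with total counts, 9 and 160 with ACT1, 58 and 40 with DESeq2, 61 and 210 with limma on log2(TPM + 1), 59 and 204 with limma on log2(TPM + 0.1), 0 and 1 with genes of at least 1 count in 1 library, with no ScRNA block or with a gene length offset, 0 and 0 at an adjusted p under 0.01 and 2 and 1 under 0.1. Leaving out 1 library, and with it the block, gave 0 to 112 higher and 0 to 178 lower. Separating genes on TPM numbered 574 and 1976, against 1268 and 1270 on the TMM scale, 254 and 2466 relative to ACT1, 8 and 28 with nearest libraries 1.5-fold apart, 1 and 5 with 2-fold, and 899 to 1706 and 2341 to 3614 with 1 library left out. Those at least 2-fold in the mean numbered 16 and 70, against 31 and 40 on the TMM scale, 8 higher at a mean of at least 100 counts, 103 and 329 at 1.5-fold, and 11 to 71 and 24 to 258 with 1 library left out. Genes 2-fold apart in both pairs numbered 6 and 13 on TPM, 9 and 7 on the TMM scale, and 39 and 137 at 1.5-fold. The cause of these shifts was not tested.

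Of 98 genes checked, 92 kept their direction in every fit. Leaving out 1 library, log2 fold changes ran from -0.12 to 1.99 for IMD2, -3.37 to 3.06 for HIS3, -0.016 to 0.29 for TRP1, -0.053 to 0.57 for TDH3, -10.38 (a fitted value, no bound) to 0.55 for CPP2 and -0.79 to 0.68 for YGR025W, where all 4 had given 1.03, -0.20, 0.15, 0.26, -1.39 and 0.01. With ACT1 they were -0.12 for TRP1, -0.0077 for TDH3 and -0.25 for YGR025W, which was also at -0.085 with total counts, -0.011 with DESeq2, -0.11 and -0.15 with limma and -0.060 with the length offset. No paired analysis was possible because the labels give no replicate numbers, other than the pairs by presence of ScRNA that the block uses. With 1 library per strain, the number of strains limits every comparison. Counts of the named genes were mostly large, but in byMM1832 SAE3 had 6 counts and RGI2 had 26.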
